A study of Homo sapiens with 6 samples.

Results

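The genes described here are 10 that make, sense, degrade or export prostaglandins: PLA2G4A, PTGS1, PTGS2, PTGES, PTGES2, PTGES3, PTGER2, PTGER4, HPGD and ABCC4. They were chosen by name from a table of read counts for 37871 genes, and all 10 were found in it by their Ensembl identifiers. The RNA was from T24, a long-established line of human bladder carcinoma that the labels call epithelial, grown in high-glucose DMEM with penicillin and streptomycin. There were 3 libraries after lipopolysaccharide (LPS) plus nigericin and 3 libraries after vehicle. LPS is the bacterial ligand of TLR4, and nigericin is a potassium ionophore used to activate the NLRP3 inflammasome. The sources used here give no dose, no treatment time and no group with either agent alone, so what each agent contributes cannot be told apart. They do not say whether the libraries came from separate cultures, and p-values therefore measure the spread between these libraries, which may be technical.

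Prostaglandins are lipid mediators of pain, fever and inflammation. Cytosolic phospholipase A2 frees arachidonic acid from membranes, the cyclooxygenases COX-1 and COX-2 turn it into prostaglandin H2, and terminal synthases turn that into prostaglandin E2 and its relatives. Prostaglandin E2 leaves the cell partly through the pump MRP4, acts on the EP receptors, and is inactivated by 15-hydroxyprostaglandin dehydrogenase. COX-2 is the inducible enzyme of this pathway in epithelial cells, and the COX-2 and prostaglandin E2 axis has long been studied in bladder carcinoma.

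The libraries held 66180407 to 86594539 gene counts after LPS plus nigericin and 81917343 to 89152224 after vehicle. Replicates correlated at 0.965 to 0.978 in log2 CPM within groups and at 0.880 to 0.923 between groups (Pearson, over genes, which cannot count as replicates). The correlation across genes of each library's deviation with GC content was -0.553 to -0.441 in treated and 0.198 to 0.621 in vehicle libraries (Spearman). Of 8 epithelial markers, 6 were tested and 4 fell, and the summed level of all 8 was 3614 to 4648 CPM in treated and 6622 to 9659 CPM in vehicle libraries. With the GC and length correction described below, KRT7 was no longer called (0.11) and KRT17 was called higher (1.08). KRT8 and KRT7 were abundant, while KRT5 and CDH1 reached at most 0.0952 and 0.0714 CPM. The 7 leukocyte markers analysed summed to 5.18 to 7.84 CPM after treatment and 7.94 to 16.4 CPM after vehicle, the 7 fibroblast markers to 4.46 to 4.53 CPM after treatment and 5.17 to 5.99 CPM after vehicle, and the 4 endothelial markers to 0.476 to 0.947 CPM after treatment and 0.735 to 0.918 CPM after vehicle. LYZ and COL3A1 were called higher and CD68 lower. PTPRC, the defining leukocyte gene, reached at most 0.0360 CPM, and DCN, LUM, KDR and FCGR3A were at 0 throughout. The part of the lower epithelial marker level in the results below was not tested. In bulk RNA, fewer cells with a transcript and less of it per cell cannot be told apart.

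After LPS plus nigericin, the transcripts of COX-2 (PTGS2) and of the exporter MRP4 (ABCC4) rose most among the members, and those of PLA2G4A and of COX-1 (PTGS1) rose less. PTGES2 fell. PTGES, PTGES3, PTGER2 and PTGER4 did not pass the threshold, and HPGD had too few counts to be tested. Thus 9 members entered the test, 4 rose, 1 fell and 4 did not pass. Among all 19170 tested genes, 55.3% passed, 28.9% higher and 26.4% lower, so 5 calls among 9 members (55.6%) is near the share of all genes and says nothing particular about the pathway. The median log2 fold change of the 9 members was 0.76, against 0.0016 for all tested genes. The groups of 5 of the 9 members did not overlap, against 67.0% of all tested genes. Levels are CPM, gene counts relative to library size, on library sizes scaled by TMM, which corrects for differences in RNA composition. Fold changes are those of treated over vehicle libraries from edgeR's quasi-likelihood test, and each adjusted p is a Benjamini-Hochberg value over all 19170 tested genes with a threshold of 0.05.

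Transcript composition differed between the groups in the whole table, and this touches every member. When 13977 tested protein-coding genes were split into GC quintiles, 59.3% of the GC-poorest quintile were called higher after treatment, against 6.80% of the GC-richest. A second fit therefore corrected for GC content and transcript length in every library, and its values are given below as corrected values. That correction also removes any treatment effect that follows either property, and whether the trend is technical was not tested. In the corrected fit, 54.5% of genes passed, 25.0% higher and 29.5% lower, and 3 of the 9 tested members rose, 1 fell and 5 did not pass. The corrected median was 0.37 for the members and -0.050 for all genes.

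**Figure D1:**
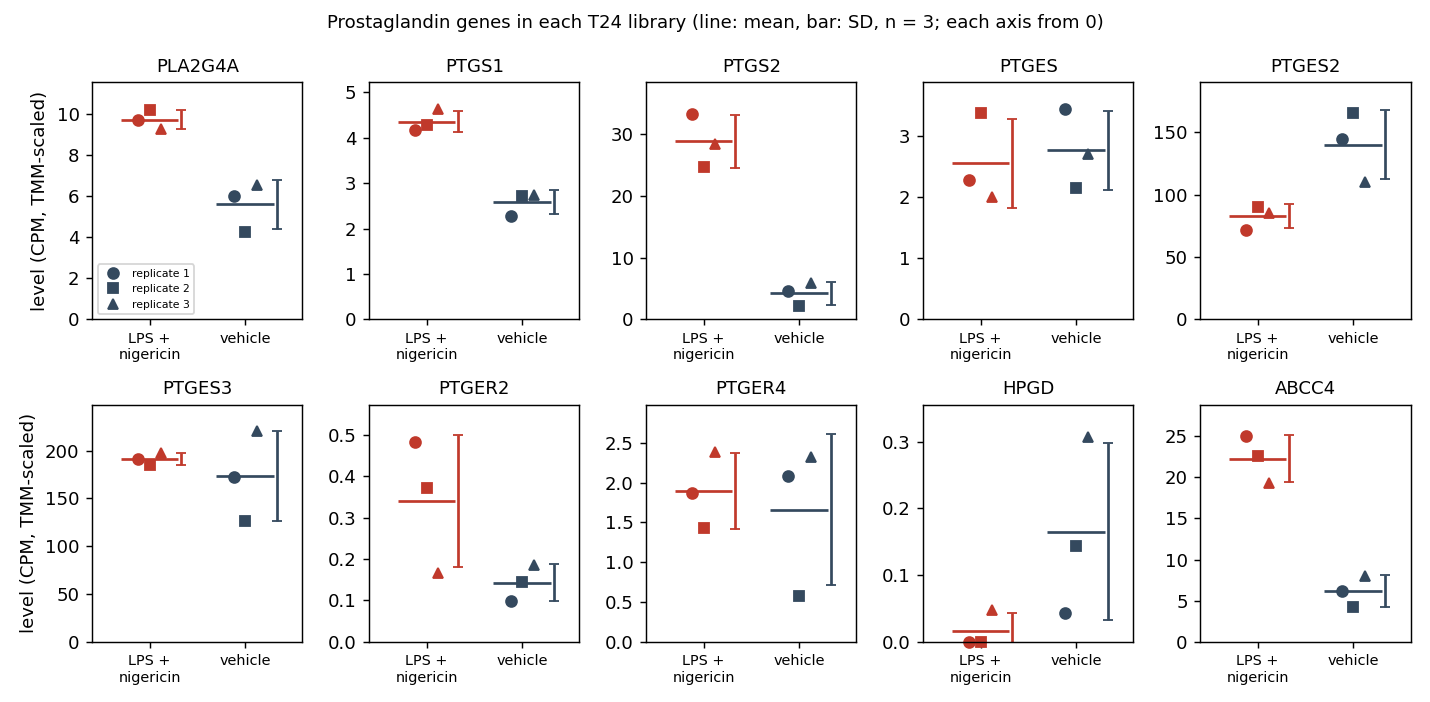
Level of each of the 10 genes in every library, in CPM on TMM-scaled library sizes, with LPS plus nigericin left of vehicle. Symbols are single libraries, lines are means and bars are SD over 3 libraries. The groups are apart for PLA2G4A, PTGS1, PTGS2, PTGES2 and ABCC4, and overlap for the others.

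PLA2G4A encodes cytosolic phospholipase A2 alpha, the calcium-dependent enzyme that releases arachidonic acid. It stood at 9.72, 10.2 and 9.27 CPM in the treated libraries, against 5.99, 4.27 and 6.56 CPM in the vehicle libraries. Every treated library was above every vehicle library. PLA2G4A rose 1.73-fold (log2 fold change 0.79, SE 0.195, edgeR adjusted p = 0.00957). With the GC and length correction this call ended, at a log2 fold change of 0.06 (95% interval -0.24 to 0.36, edgeR adjusted p = 0.717). Its transcript is GC-poor, at 39.0%, and the median log2 fold change of the protein-coding genes in its GC quintile was 0.84.

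PTGS2 encodes COX-2, the cyclooxygenase that cells switch on in response to cytokines and mitogens. Its level was 33.3, 24.7 and 28.4 CPM after LPS plus nigericin, against 4.54, 2.19 and 5.90 CPM after vehicle. The groups did not overlap, and vehicle library 2 was the lowest of the 6. PTGS2 averaged 28.8 ± 4.35 CPM in treated and 4.21 ± 1.88 CPM in vehicle libraries (SD, n = 3 each). It rose 6.83-fold (log2 fold change 2.77, SE 0.340, 95% interval 1.99 to 3.56, edgeR adjusted p = 4.71e-04). Only 734 of the 19170 tested genes (3.83%) had a larger log2 fold change. PTGS2 has a GC content of 36.9%, in the lowest quintile, and 2.00% of the 2794 genes in that quintile lay above it. The corrected log2 fold change was 1.85 (SE 0.146, edgeR adjusted p = 3.02e-05), still past the threshold.

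PTGS1 (ENSG00000095303, chromosome 9, 122370530 to 122395703, plus strand, GRCh38) encodes COX-1, the form most tissues keep at a steady level. It had 4.17, 4.28 and 4.63 CPM in treated libraries, against 2.28, 2.73 and 2.74 CPM in vehicle libraries, with no overlap. PTGS1 rose 1.69-fold (log2 fold change 0.76, SE 0.185, edgeR adjusted p = 0.00937). The corrected log2 fold change was 0.50 (edgeR adjusted p = 0.0387), past the threshold, but with the replicate number added as a block to the correction this call ended (0.51, edgeR adjusted p = 0.0596). Within each library the balance of the 2 cyclooxygenases can be read without any scaling between libraries. The log2 ratio of PTGS2 to PTGS1 CPM was 2.99, 2.52 and 2.61 in treated libraries, against 0.99, -0.31 and 1.10 in vehicle libraries. The means differed by 2.12, and the groups were apart, but an exact permutation test of 3 against 3 libraries cannot give a two-sided p below 0.1, which is the value it gave (0.175 after adjustment over 7 ratios). The 2 transcripts differ in GC content, at 36.9% for PTGS2 and 50.8% for PTGS1, so this ratio is free of scaling but not of the GC trend.

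PTGS2 lies on the minus strand of chromosome 1 at 186671791 to 186680427 (GRCh38, GENCODE 29) and has 9 exon blocks. No exon of any of the 10 genes overlaps an exon of another annotated gene. PLA2G4A, on the plus strand at 186828953 to 186988981, lies 148525 bases away. Between them lies PACERR, a long noncoding RNA on the opposite strand that starts 194 bases before the start of PTGS2 and is known as a regulator of it. PACERR, chosen here after its values were seen, was low in all libraries. It had 7, 0 and 16 counts after treatment, against 28, 29 and 31 counts after vehicle. With a log2 fold change of -1.78 it did not pass (edgeR adjusted p = 0.153). The log2 ratio of PLA2G4A to PTGS2 CPM was -1.78, -1.27 and -1.61 in treated libraries, against 0.40, 0.96 and 0.15 in vehicle libraries. The groups were apart, and the difference of -2.06 had an exact permutation p of 0.1, the smallest possible (0.175 adjusted over the 7 ratios).

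The promoter windows of PTGS2 and ABCC4, the members that rose most, and of PTGES2, the member that fell, are shown. They differ in base composition and in the short motifs they hold. Those of PLA2G4A and PTGS1, which also rose, are not shown. Whether composition or motifs go with the direction of change was not tested. Each window runs from 250 bases before to 50 bases after a RefSeq start (GRCh38.p14) and is written 5′ to 3′ on the strand of the gene. Capitals mark matches, on either strand, to the TATA box TATAAA, the cAMP response element half-site CGTCA, the AP-1 motif TGANTCA, the C/EBP motif TTNNGCAA, the SP1 box GGGCGG, or the NF-kB consensus.
PTGS2, chr1:186680374-186680673, minus strand: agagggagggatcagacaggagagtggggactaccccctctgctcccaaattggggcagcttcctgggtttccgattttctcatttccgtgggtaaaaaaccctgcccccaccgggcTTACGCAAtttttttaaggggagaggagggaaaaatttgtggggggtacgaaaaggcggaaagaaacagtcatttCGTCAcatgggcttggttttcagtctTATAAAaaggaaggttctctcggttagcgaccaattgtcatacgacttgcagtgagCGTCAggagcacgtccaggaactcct
ABCC4, chr13:95301402-95301701, minus strand: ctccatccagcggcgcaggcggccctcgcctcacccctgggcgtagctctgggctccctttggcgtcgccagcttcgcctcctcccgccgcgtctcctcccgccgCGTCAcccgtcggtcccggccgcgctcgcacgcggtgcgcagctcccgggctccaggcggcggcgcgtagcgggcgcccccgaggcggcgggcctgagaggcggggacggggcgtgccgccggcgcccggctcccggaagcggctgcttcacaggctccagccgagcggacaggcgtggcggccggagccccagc
PTGES2, chr9:128128391-128128690, minus strand: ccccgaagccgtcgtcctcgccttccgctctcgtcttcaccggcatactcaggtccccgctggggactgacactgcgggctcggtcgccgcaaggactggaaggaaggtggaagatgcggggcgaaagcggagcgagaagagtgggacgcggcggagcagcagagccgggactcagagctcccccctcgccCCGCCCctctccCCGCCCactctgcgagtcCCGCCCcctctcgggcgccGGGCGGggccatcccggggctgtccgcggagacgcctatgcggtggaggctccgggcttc

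In the PTGS2 window a TATA box match begins 32 bases before the start, a cAMP response element half-site 58 bases before it and another 24 bases after it, and a C/EBP match 133 bases before it. Of all 35116 windows in the table, 11.5% held the TATA box letters, 24.6% the half-site, 10.5% the C/EBP letters, 45.0% the SP1 box, 7.71% the AP-1 letters and 5.91% the NF-kB consensus. The ABCC4 window, at 79.7% GC, held 1 half-site and no other match. The PTGES2 window, at 72.3% GC, held 4 SP1 boxes, and PTGES2 has 2 further RefSeq starts with windows of their own. PTGS2 was at 50.7% GC, below the median of 58.7% over all windows. Of the 14 windows of the 10 members, only PTGER4's held a match to the NF-kB consensus as written here, and no window held one to AP-1. That consensus was GGGRNWYYCC, with R for A or G, W for A or T and Y for C or T. Near matches were not counted, such as gggactaccc in the PTGS2 window. A match is a run of letters and not a shown binding site, and an absent one says only that these letters are not in this window.

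Of the 3 terminal prostaglandin E synthases, only PTGES2 passed the test. PTGES encodes mPGES-1, the microsomal enzyme usually induced along with COX-2. It had 2.28, 3.38 and 2.01 CPM after treatment, against 3.45, 2.15 and 2.71 CPM after vehicle. These ranges overlap, and the log2 fold change was -0.12 (95% interval -0.76 to 0.53, edgeR adjusted p = 0.749). The corrected value had the other sign, 0.37, and did not pass either (edgeR adjusted p = 0.283).

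PTGES2 (ENSG00000148334, chromosome 9, 128120693 to 128128462, minus strand, GRCh38) encodes mPGES-2, a membrane-associated synthase. It had 71.7, 90.3 and 85.6 CPM in treated libraries, against 144, 166 and 110.3 CPM in vehicle libraries, where it was higher in all 3. PTGES2 fell, with means of 82.5 ± 9.69 CPM after treatment and 140.0 ± 27.9 CPM after vehicle (SD, n = 3 each; log2 fold change -0.76, SE 0.169, edgeR adjusted p = 0.00605). It is the member with the highest GC content, 65.7%, and the median log2 fold change of its GC quintile was also -0.76. The corrected log2 fold change was 0.05 (95% interval -0.08 to 0.19, edgeR adjusted p = 0.479), so the call ended and the direction turned.

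PTGES3 encodes p23, a cochaperone of HSP90 that also has prostaglandin E synthase activity. It had 191, 185 and 197 CPM in treated libraries, against 173, 126 and 221 CPM in vehicle libraries. The treated values lie inside the vehicle range, and the log2 fold change was 0.14 (SE 0.189, edgeR adjusted p = 0.550). Without vehicle library 2 it was -0.05. The corrected value was -0.46 and passed (SE 0.0828, edgeR adjusted p = 0.00209), the only member that was called lower in that fit. PTGES3 has 4 processed pseudogenes in the table, which held 0.351% to 1.19% of the summed counts of the family, so reads of near-identical copies can have been split among them. The log2 ratio of PTGES to PTGES2 averaged -5.03 in treated and -5.65 in vehicle libraries (exact permutation p = 0.3, n = 3 each). That of PTGES to PTGES3 averaged -6.25 in treated and -5.94 in vehicle libraries (exact permutation p = 0.4, n = 3 each), and the groups overlap in both. The GC content of the transcripts is 56.6% for PTGES, 65.7% for PTGES2 and 41.8% for PTGES3, so neither ratio is free of the GC trend.

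Of the EP receptors chosen, PTGER4 and PTGER2 encode EP4 and EP2, which couple to Gs and raise cAMP. PTGER4 had 1.87, 1.43 and 2.38 CPM after treatment, against 2.08, 0.577 and 2.33 CPM after vehicle. Vehicle library 2 was the lowest, the groups overlap, and the log2 fold change of 0.19 had a wide interval (95% interval -0.92 to 1.29, edgeR adjusted p = 0.765). Without vehicle library 2 it was -0.22. PTGER2 was low, with 32, 31 and 14 counts in treated libraries, against 9, 11 and 17 counts in vehicle libraries. In CPM these are 0.484, 0.372 and 0.167 after treatment and 0.0986, 0.144 and 0.186 after vehicle. The groups overlap through treated library 3, and a log2 fold change of 1.24 did not pass (95% interval -0.18 to 2.65, edgeR adjusted p = 0.121). At this depth neither receptor showed a detectable difference. The log2 ratio of PTGER4 to PTGER2 differed by -0.66 between treated and vehicle libraries, with overlap (exact permutation p = 0.7).

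HPGD encodes 15-hydroxyprostaglandin dehydrogenase, the enzyme that inactivates prostaglandin E2. It had 0, 0 and 4 counts in the treated libraries, against 4, 11 and 28 counts in the vehicle libraries. A count of 0 in treated libraries 1 and 2 allows up to 0.0453 and 0.0360 CPM, and the vehicle libraries were at 0.0438, 0.144 and 0.307 CPM. HPGD was below the count filter and no fold change is given. Bounds of this kind cover counting error only.

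ABCC4 (ENSG00000125257, chromosome 13, 95019829 to 95301475, minus strand, GRCh38) encodes MRP4, a pump of the ATP-binding cassette family that exports prostaglandins and cyclic nucleotides. It had 25.0, 22.6 and 19.3 CPM in treated libraries, against 6.21, 4.22 and 8.03 CPM in vehicle libraries. The groups did not overlap. ABCC4 rose 3.62-fold (log2 fold change 1.85, SE 0.243, edgeR adjusted p = 5.99e-04). A larger log2 fold change was found for 1541 tested genes (8.04%). The corrected value was 1.01 (SE 0.131, edgeR adjusted p = 3.68e-04). Its GC content is 42.6% and its transcript is in the longest quintile. Of the protein-coding genes in its GC quintile 8.20% lay above it, and of those in its length quintile 8.23%.

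Both log2 ratios to HPGD were higher in treated libraries, by 5.03 for PTGS2 and by 4.05 for ABCC4, each with an exact permutation p of 0.1 (0.175 adjusted). Since HPGD was at 0 in 2 libraries, the size of both depends on the prior count of 2 added before taking logs. With a prior count of 0.5 the differences were 6.28 and 5.30.

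**Figure D2:**
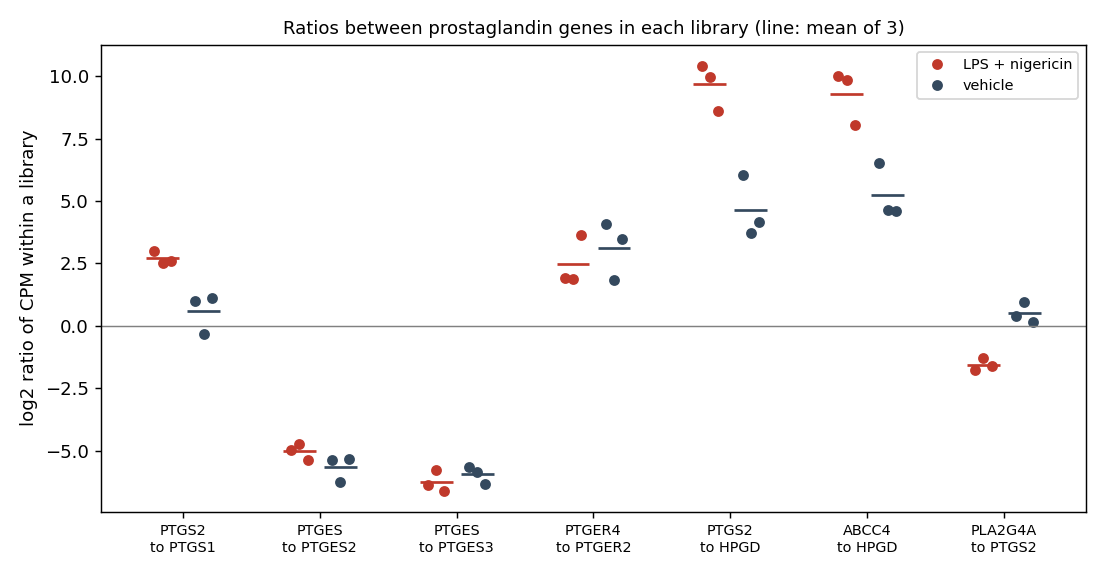
Log2 ratio of the CPM of pairs of prostaglandin genes within each library, LPS plus nigericin left of vehicle in each pair. Points are libraries and lines are means of 3. The groups are apart for PTGS2 to PTGS1, PTGS2 to HPGD, ABCC4 to HPGD and PLA2G4A to PTGS2, and overlap for the other 3 ratios.

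**Figure D3:**
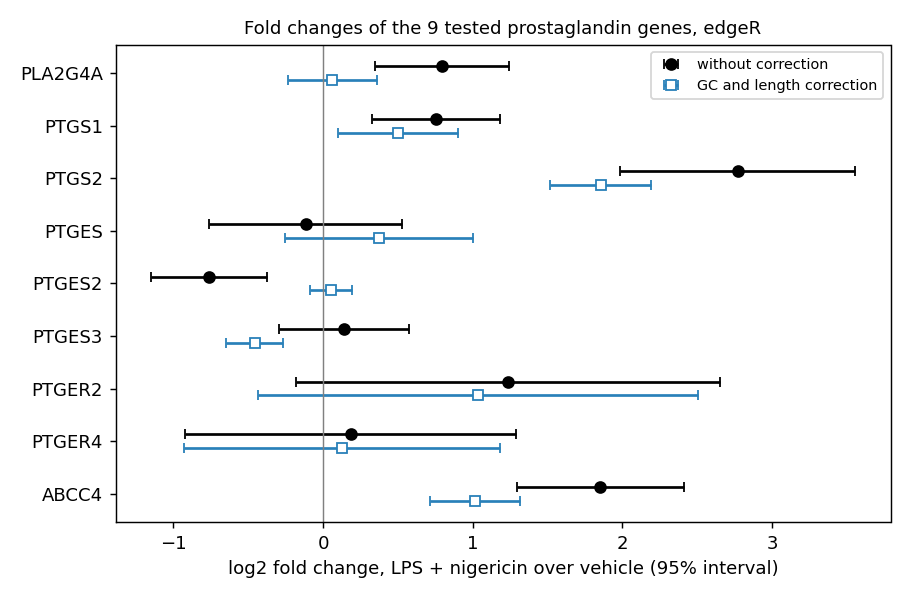
Log2 fold change of the 9 tested prostaglandin genes, LPS plus nigericin over vehicle, from edgeR without correction (filled circles) and with the GC and length correction (open squares), with 95% intervals. The intervals of PTGS2, ABCC4 and PTGS1 lie above 0 in both fits, while PLA2G4A and PTGES2 move to 0.06 and 0.05 with the correction and PTGES3 to -0.46.

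The relation of the members to the GC trend can be seen gene by gene. PLA2G4A and PTGES2 lay close to the medians of their GC quintiles, 0.79 against 0.84 and -0.76 against -0.76. PTGS2 was above the median of its quintile (2.77 against 0.84), and so was ABCC4 (1.85 against 0.62). PTGS1 was at 0.76 in a quintile with a median of 0.14. PTGES3, in the same quintile as ABCC4, was at 0.14.

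**Figure D4:**
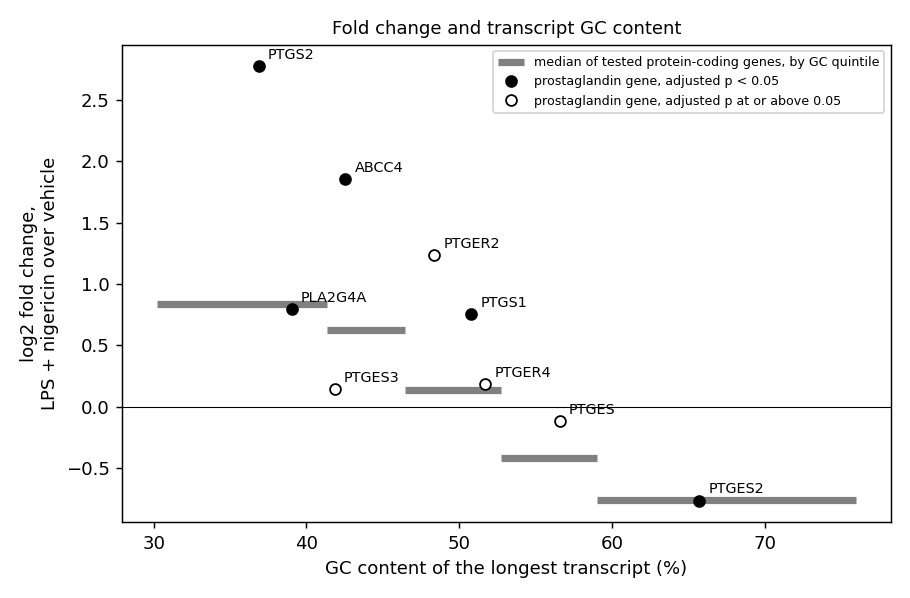
Log2 fold change of the 9 tested prostaglandin genes (LPS plus nigericin over vehicle) against the GC content of the longest transcript in percent. Filled points passed an adjusted p of 0.05, open points did not, and grey bars are the medians of tested protein-coding genes in each GC quintile, which run from 0.84 in the lowest to -0.76 in the highest.

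Levels per length (TPM, computed from the counts and the summed exon length) show how abundant the members were relative to each other. After LPS plus nigericin the order was PTGES3 (159 ± 8.59 TPM), PTGES2 (76.6 ± 6.93), PTGS2 (15.5 ± 2.81), PLA2G4A (9.56 ± 0.365), ABCC4 (7.30 ± 1.05), PTGES (3.79 ± 0.967), PTGS1 (2.13 ± 0.126), PTGER4 (1.35 ± 0.360), PTGER2 (0.390 ± 0.190) and HPGD (0.00814 ± 0.0141; mean ± SD, n = 3). No 2 neighbours in that order had overlapping ranges. After vehicle the order was PTGES3 (154 ± 59.0 TPM), PTGES2 (134 ± 12.7), PLA2G4A (5.86 ± 1.87), PTGES (4.36 ± 1.30), PTGS2 (2.45 ± 1.31), ABCC4 (2.16 ± 0.899), PTGS1 (1.32 ± 0.209), PTGER4 (1.29 ± 0.816), PTGER2 (0.173 ± 0.0671) and HPGD (0.0913 ± 0.0822). There only PTGES2 and PLA2G4A, and PTGER4 and PTGER2, had ranges that did not overlap. PTGS2 was thus the third of the 10 in treated cells and the fifth, not separable from its neighbours, in vehicle cells. These levels were not corrected for GC content, so the order and its change between groups are not free of the GC trend.

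The genes most like PTGS2 over the 6 libraries were sought among the 13613 tested genes that averaged 1 CPM or more, by the root mean square difference of log2 CPM after subtracting each gene's mean. They were EREG, the EGF receptor ligand epiregulin (difference 0.0780), EIF4A2, an RNA helicase of translation initiation (0.0909), NPY1R, a neuropeptide Y receptor (0.101), and CXCL11, an interferon-inducible chemokine (0.119). EREG had 452, 338 and 375 CPM in treated libraries, against 61.2, 33.6 and 75.4 CPM in vehicle libraries. These 4 genes share with PTGS2 both the difference between groups and the low value in vehicle library 2, which follows from how they were picked. All 4 are, like PTGS2, in the lowest GC quintile. Their corrected log2 fold changes were 1.82, 2.15, 1.96 and 2.28, in the order named. The part of the GC trend in this likeness was not tested. Among the members the nearest was ABCC4, at rank 391 with a difference of 0.532, followed by PLA2G4A at rank 3200.

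The other genes of eicosanoid metabolism were grouped into 10 lists by role, chosen with earlier results of these data known. Counts in each list stand against the 55.3% of all tested genes that passed, and the median log2 fold change of all tested genes was 0.0016. Of 9 tested genes for other prostaglandin synthases and carbonyl reductases, 5 fell and 4 did not pass, with a median log2 fold change of -1.09. With the correction 1 rose, 4 fell and 4 did not pass (median -0.81). CBR1, a carbonyl reductase that converts prostaglandin E2 to F2 alpha, had 21.7, 23.5 and 21.8 CPM in treated libraries, against 79.7, 65.7 and 77.7 CPM in vehicle libraries. It fell by 1.74 on the log2 scale (SE 0.125, edgeR adjusted p = 6.43e-05). Its relative CBR3 fell to 3.89 ± 1.10 CPM in treated libraries, against 19.8 ± 1.11 CPM in vehicle libraries (log2 fold change -2.35, or -1.61 corrected). AKR1C3, an aldo-keto reductase with prostaglandin F synthase activity, fell to 1.21 ± 0.136 CPM in treated libraries, against 3.91 ± 0.296 CPM in vehicle libraries (log2 fold change -1.70, or -2.33 corrected).

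AKR1C1 also fell, with a log2 fold change of -1.09 and a corrected one of -2.05, and AKR1C2 was at 0.179 ± 0.214 CPM after treatment and 0.152 ± 0.192 CPM after vehicle. AKR1C1, AKR1C2 and AKR1C3 are close in sequence, and the counting tool is not given, so reads can have been divided among them. PRXL2B, prostamide and prostaglandin F synthase, fell (log2 fold change -0.77), a call that ended with the GC and length correction (-0.07, edgeR adjusted p = 0.405). AKR1B1, a prostaglandin F synthase, was at 432 ± 36.0 CPM in treated and 473 ± 65.9 CPM in vehicle libraries and did not pass. The corrected value of AKR1B1 was 0.25 and passed (edgeR adjusted p = 0.0139). TBXAS1, thromboxane synthase, and PTGDS, a prostaglandin D synthase, stayed below 1 CPM in every library, at most 0.856 and 0.384 CPM, and PTGIS, prostacyclin synthase, reached 0.0604 CPM in 1 treated library and was listed at 0 elsewhere.

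Among 6 tested genes for other prostanoid receptors and nuclear receptors of their metabolites, 2 rose, 2 fell and 2 did not pass (median log2 fold change 0.23). With the correction 3 rose, 2 fell and 1 did not pass, and without treated library 3 only 1 rose. PPARG, a nuclear receptor for prostaglandin J2 derivatives, had 38.9, 44.0 and 39.1 CPM in treated libraries, against 83.4, 87.5 and 79.7 CPM in vehicle libraries. It fell by 1.04 on the log2 scale (SE 0.111, edgeR adjusted p = 2.58e-04), with a corrected log2 fold change of -1.57. TBXA2R, the thromboxane receptor, fell to 1.32 ± 0.207 CPM in treated libraries, against 4.09 ± 0.978 CPM in vehicle libraries (log2 fold change -1.64, or -0.83 with the correction). PTGFRN, a membrane protein that binds the prostaglandin F receptor, rose (log2 fold change 0.58, 0.35 corrected).

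PTGER3, the EP3 receptor, had 14, 35 and 51 counts in treated libraries, against 0, 4 and 4 counts in vehicle libraries, and passed the test (log2 fold change 3.65, which depends on the prior count, edgeR adjusted p = 0.0120). Without treated library 3 the PTGER3 value was 3.26 and missed the threshold (edgeR adjusted p = 0.0608), and with the correction it was 2.63 (edgeR adjusted p = 0.0530). PTGER1, the EP1 receptor, was low, with 10, 31 and 13 counts in treated libraries, against 8, 10 and 4 counts in vehicle libraries. It had 0.226 ± 0.126 CPM after treatment and 0.0876 ± 0.0436 CPM after vehicle and did not pass (edgeR adjusted p = 0.151). Its corrected value of 2.37 passed (edgeR adjusted p = 0.0199), at these low counts. PPARD had 60.0 ± 2.23 CPM in treated and 65.6 ± 1.95 CPM in vehicle libraries and did not pass. Its corrected value of 0.31 passed. The receptors for prostaglandin D2 and prostacyclin, PTGDR2 and PTGIR, reached at most 0.302 and 0.459 CPM, and PTGFR, the prostaglandin F receptor, was at 0 in all 6 libraries.

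Of 10 tested genes for prostaglandin transport and breakdown, 3 rose, 1 fell and 6 did not pass (median log2 fold change -0.16). The corrected counts were 4 higher, 3 lower and 3 not passing, and 2 fell without vehicle library 2 and 3 without vehicle library 3. The pumps ABCC1 and ABCC2, relatives of ABCC4, rose. ABCC1 had 143, 115 and 122 CPM in treated libraries, against 63.1, 57.6 and 68.7 CPM in vehicle libraries (log2 fold change 1.00, edgeR adjusted p = 5.37e-04, and 1.03 with the correction). ABCC2 rose to 2.69 ± 0.440 CPM in treated libraries, against 0.467 ± 0.183 CPM in vehicle libraries (log2 fold change 2.52, or 1.81 corrected). ABCC3 was at 21.5 ± 0.868 CPM in treated and 25.4 ± 2.98 CPM in vehicle libraries and did not pass. PTGR1, a prostaglandin reductase, rose by 0.60 on the log2 scale, while PTGR3, another reductase of that family, fell by 1.64 (corrected log2 fold change -2.53).

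PTGR2 (log2 fold change 0.17), CBR4 (-0.29), SLCO3A1 (-0.23), SLCO4A1 (-0.08) and CYP4F11 (-0.38) did not pass. With the correction CBR4, SLCO3A1 and SLCO4A1 did, at -1.19, -0.49 and 0.64, and PTGR2 was at -0.52 (edgeR adjusted p = 0.0588). The prostaglandin uptake carrier SLCO2A1 reached at most 0.181 CPM and SLC22A11 0.119 CPM. SLCO2B1, CYP4F8 and CYP4F12 were at 0 in all libraries.

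Further upstream, arachidonate is supplied by desaturases and acyl-CoA synthetases. Of 23 tested genes there, 9 rose, 6 fell and 8 did not pass (median log2 fold change 0.11), against 8, 4 and 11 with the correction. ACSL1, a long-chain acyl-CoA synthetase, rose by 1.66 on the log2 scale (1.07 corrected), and FADS2, a fatty acid desaturase, fell by 0.90 (corrected log2 fold change -0.34). FABP4, a fatty acid carrier, had 0.302, 0.467 and 0.333 CPM in treated libraries, against 4.81, 3.57 and 5.89 CPM in vehicle libraries. It fell by 3.68 on the log2 scale (edgeR adjusted p = 9.64e-05).

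Of 14 tested phospholipases A2 and related lipases, 3 rose, 6 fell and 5 did not pass (median -0.07 on the log2 scale), against 4, 4 and 6 with the correction. Only 1 of them rose without treated library 2 or 3, or when libraries were scaled by their totals. With the replicate block added to the correction, 3 fell. PLAAT3, a phospholipase and acyltransferase, fell by 0.78, PLA2G6, the calcium-independent enzyme, by 0.86, and PNPLA6 by 0.63. The calls of PLA2G6 and PNPLA6 ended with the correction, at -0.24 and -0.06. Of 13 genes for activators of phospholipase A2 and annexins, 6 rose, 3 fell and 4 did not pass (median 0.28), against 5, 5 and 3 with the correction. Leaving out 1 library at a time gave 4 to 5 higher and 1 to 3 lower, with 1 lower without treated library 1 or 3 or vehicle library 1. PLA2R1, a receptor of secreted phospholipases, rose by 1.30, a call that ended with the correction at 0.11, and ANXA3, an annexin, rose by 0.62, or 0.27 corrected.

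In the branches that compete for arachidonate, ALOX12 stood out by size. ALOX12, which encodes platelet-type 12-lipoxygenase, had 10.9, 11.2 and 10.8 CPM in treated libraries, against 0.920, 0.787 and 0.724 CPM in vehicle libraries. It rose by 3.76 on the log2 scale (SE 0.187, edgeR adjusted p = 2.21e-05), or by 4.21 with the correction. Of 12 tested lipoxygenase and leukotriene genes, 2 rose, 3 fell and 7 did not pass (median -0.23), against 1, 2 and 9 with the correction. LTB4R, a leukotriene B4 receptor, fell by 0.77 and MGST3 by 0.69. Of 10 cytochrome P450 and epoxide genes, 1 rose, 2 fell and 7 did not pass (median 0.05), against 4, 1 and 5 with the correction. Without vehicle library 2, 3 rose, without vehicle library 3, 2 rose, and without any library other than vehicle library 3 only 1 fell. With the replicate block added to the correction, 2 rose and 1 fell. CYP2U1 rose by 1.58, or 0.91 corrected, while CYP2S1 and POR fell by 0.72 and 0.53. The call of CYP2S1 ended without vehicle library 1 or 2 or any treated library (log2 fold changes -0.76 to -0.50, edgeR adjusted p = 0.0579 to 0.101), and its corrected value was -0.01. The corrected value of POR was 0.17 and passed in the other direction (edgeR adjusted p = 0.0458), a call that ended with the replicate block (edgeR adjusted p = 0.0815).

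Downstream of the EP receptors, 36 genes of Gs and cAMP signalling were tested, of which 15 rose, 11 fell and 10 did not pass (median 0.36), with 7 lower without treated library 1 or vehicle library 1. With the correction 12 rose, 6 fell and 18 did not pass (median 0.06). ATF1, a transcription factor of the CREB family, had 31.3, 25.9 and 27.4 CPM in treated libraries, against 7.58, 5.86 and 9.77 CPM in vehicle libraries (log2 fold change 1.86, or 1.06 corrected). The anchoring proteins AKAP12 and AKAP13, which hold protein kinase A in place, rose by 1.64 and 1.21, or 0.90 and 0.61 corrected. Of 13 tested factors known to bind or regulate PTGS2 mRNA, 8 rose and 5 did not pass (median 0.57), while without vehicle library 2 another 2 were called lower. With the correction 4 rose, 4 fell and 5 did not pass (median 0.11). With the replicate block added to the correction, 4 rose and 3 fell. HNRNPA1, HNRNPU and HNRNPD rose by 0.87, 0.83 and 0.76, and none of these 3 passed with the correction, at 0.14, -0.12 and 0.11.

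**Figure D5:**
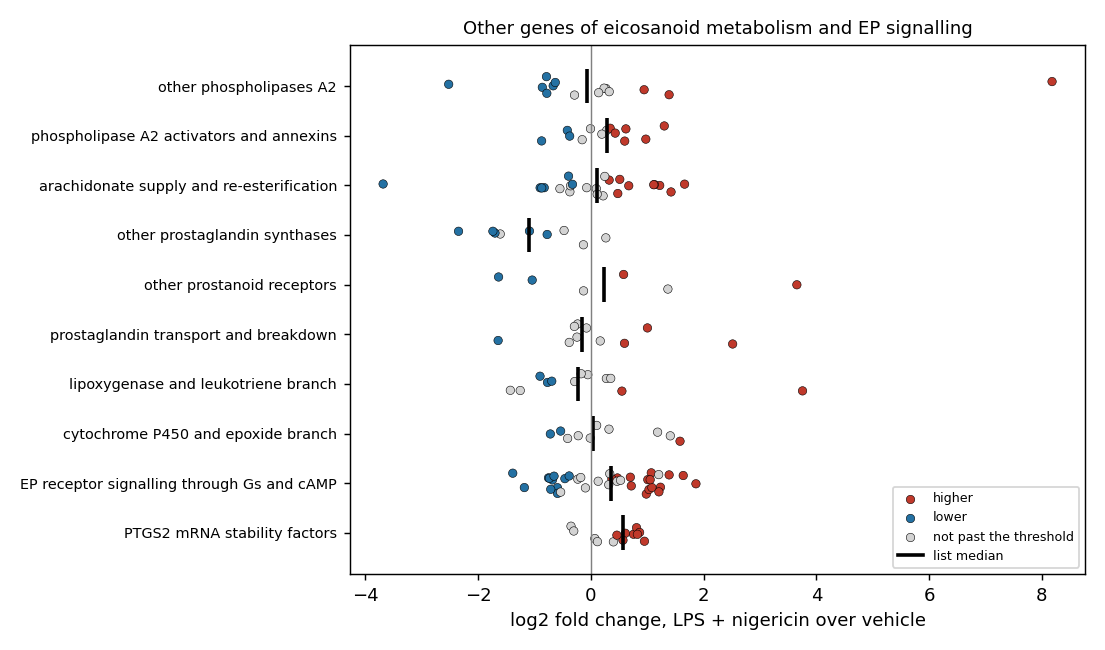
Log2 fold change (LPS plus nigericin over vehicle) of the tested genes in 10 lists of eicosanoid metabolism, EP receptor signalling and PTGS2 mRNA regulation, coloured by edgeR call, with the list median as a bar. Other prostaglandin synthases have the lowest median, -1.09. The point farthest right is PLA2G12B, at 0 counts in every vehicle library and 29, 29 and 45 counts after treatment, so its fitted value is no measured fold.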

How the data were processed

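Counts of T24 libraries were taken as deposited: the authors deposited whole-number counts per Ensembl gene, 1 column per library, per the file headers, and hg38 is the build per the submitters' processing notes. No aligner, counting tool, annotation release or strand setting is named in the labels or headers, so each is not given in the sources used here. Of 37871 identifiers, 37840 matched a symbol. edgeR 4.0.16 (R 4.3.3) filtered genes with filterByExpr (19170 left), scaled libraries with TMM and ran a robust quasi-likelihood F test on the 2 groups without covariates. Standard errors and intervals were derived from the F statistic and its degrees of freedom. The correction subtracted per-library loess trends (span 0.3) of log2 CPM (prior count 2) on GC content and then length of the longest GENCODE 29 transcript, in 13977 protein-coding genes. Ratios used an exact two-sided permutation test over 20 splits, adjusted over 7 ratios. Promoters are RefSeq's. The scripts were tested on simulated counts, which had less spread between libraries and fewer changed genes than these data. That test covers the code and gives no error rate for these data. Alternatives used DESeq2 1.42.0, limma 3.58.1 (voom), other scalings and filters, the replicate number as a block, and each library left out.

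The 10 members, the lists and the tests were chosen with earlier results of these data known. Named genes were the members, the 3 called genes with the smallest p and at least 1 CPM in each list, all genes of the lists of other synthases, receptors and transport and breakdown, and the 4 genes most like PTGS2. One gene that this rule names is not reported here. PACERR, PLA2G12B, the motifs and the printed promoters were chosen after values were seen. Of 238 list and marker names, 211 were found. Between replicates, chi-square per degree of freedom was 24.2 to 208, above sampling noise, and every library was counted once.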

Additional observations from a re-analysis of the deposited data

How the results depend on the processing

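PTGS2, ABCC4, PTGS1, PLA2G4A and PTGES2 kept their direction and their call under other scalings, DESeq2, limma-voom, other count filters and with each library left out in turn. Of all comparisons of a member with an alternative, 120 kept side and direction, 3 kept the direction but not the call, and 11 changed sign. Among the 11, PTGES2 also lost its call in both corrected fits and PTGES3 gained one in both. For the other named genes 637 kept both, 8 gained a call and 22 lost it in the same direction, and 17 changed sign. The GC and length correction ended the call of PLA2G4A (0.061, and 0.057 with the replicate block) and turned PTGES2 (0.054 and 0.055), PTGES (0.37 and 0.38) and PTGES3 (-0.46 and -0.45), all as log2 fold changes. Together with the replicate block it also ended the call of PTGS1 (0.51, edgeR adjusted p = 0.0596), which left 2 members higher. It left 3495 of all genes higher, or 3379 with the block, against 5540 without correction, partly because only protein-coding genes enter it. The cause of these changes was not tested.

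Under the same correction, without and with the replicate block, the log2 fold change turned for AKR1B1 (0.25 and 0.25), AKR1C2 (-0.81 and -0.49), PPARD (0.31 and 0.32), SLCO4A1 (0.64 and 0.64), PTGR2 (-0.52 and -0.51), POR (0.17 and 0.17) and HNRNPU (-0.12 and -0.12). Leaving out 1 library at a time gave ranges that cross 0 for PTGES (-0.37 to 0.070), PTGES3 (-0.045 to 0.35), PTGER4 (-0.22 to 0.50), AKR1C2 (-0.34 to 1.99) and PTGR2 (-0.053 to 0.31), none of which had a call. The number of members lower was 1 to 2, and it was 2 without treated library 3. There HPGD entered the test and was called (edgeR adjusted p = 0.0428), but that fit leaves out the only treated library with HPGD counts. HPGD also entered without treated library 1, treated library 2 or vehicle library 1, and with no count filter. In none of these fits did HPGD pass (edgeR adjusted p = 0.0748 to 0.186). Deviations of same-numbered libraries from their group means had correlations of -0.0231, 0.0956 and -0.0236. Those of differently numbered libraries ran from -0.101 to 0.122. With 3 libraries per group this cannot exclude a pairing, and the labels state none. The replicate block alone changed no call of a member (PTGS2 2.87, ABCC4 1.89, PLA2G4A 0.81, PTGS1 0.76, PTGES2 -0.75). Depth limits what can be said of PTGER2 and HPGD.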
